A study of Mus musculus with 3 samples.

Results

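The small leucine-rich proteoglycans (SLRPs) described here are 9 genes taken by symbol from the 32285 genes of the count tables, namely *Dcn* (decorin), *Bgn* (biglycan), *Aspn* (asporin), *Lum* (lumican), *Fmod* (fibromodulin), *Prelp*, *Omd* (osteomodulin), *Ogn* (osteoglycin) and *Podn* (podocan). They were measured by Visium spatial transcriptomics in wounded skin of C57BL/6J mice harvested 3, 7 or 14 days after wounding (Day 3, Day 7 and Day 14 below). Each day is 1 section, and there is no unwounded section. All 3 groups share the strain and the injury, an excisional punch wound on the back of male mice, and differ in the day of harvest alone as far as the labels say. The sections were fresh frozen, and a Visium spot is a small area that can hold several cells of different types. With 1 section per day, a difference between days cannot be told apart from a difference between animals, sections or slides, and all intervals below are 95% intervals that cover counting error only.

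SLRPs are secreted proteins with a core of leucine-rich repeats, and many of them carry chondroitin, dermatan or keratan sulfate chains. They bind collagen fibrils while these assemble and influence fibril thickness and spacing, and several of them also bind growth factors such as TGF-β. In skin they are made mainly by fibroblasts, and decorin is a prominent proteoglycan of the normal dermis. By sequence, *Dcn*, *Bgn* and *Aspn* form class I of the family, *Lum*, *Fmod*, *Prelp* and *Omd* class II, *Ogn* belongs to class III and *Podn* to class V.

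In the GENCODE M21 annotation of GRCm38, 7 of the 9 genes lie in 3 groups of neighbours. *Dcn* (chr10:97479609-97518143) and *Lum* (chr10:97565128-97572703) lie 47.0 kb apart on the plus strand. *Aspn* (chr13:49544443-49567565), *Omd* (chr13:49582462-49592822) and *Ogn* (chr13:49608046-49624501) follow each other on the plus strand with 14.9 kb and 15.2 kb between them. *Fmod* (chr1:134037254-134048277, plus strand) lies 116 kb from *Prelp* (chr1:133910304-133921414, minus strand). *Bgn* (chrX:73483602-73495933, plus strand) and *Podn* (chr4:108014791-108096445, minus strand) stand apart from the other members.

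*Bgn*, *Aspn* and *Fmod* are the 3 members whose level was at least 1.5-fold higher on Day 7 than on Day 3, and they differed afterwards, so their promoters are shown. Each sequence covers the 250 bases before the RefSeq transcript start, read 5′ to 3′ on the gene's strand in GRCm38.p6. Capitals mark, on either strand, 3 short motifs. The first is the SMAD element, spelled CAGAC. The TATA box is spelled TATAAA here. The GC box bound by Sp1-type factors is taken as GGGCGG.
Bgn: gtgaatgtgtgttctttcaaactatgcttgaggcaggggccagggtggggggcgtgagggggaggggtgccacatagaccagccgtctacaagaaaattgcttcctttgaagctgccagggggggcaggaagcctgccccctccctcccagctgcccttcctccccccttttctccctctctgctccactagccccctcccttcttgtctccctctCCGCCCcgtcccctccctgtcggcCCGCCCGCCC
Aspn: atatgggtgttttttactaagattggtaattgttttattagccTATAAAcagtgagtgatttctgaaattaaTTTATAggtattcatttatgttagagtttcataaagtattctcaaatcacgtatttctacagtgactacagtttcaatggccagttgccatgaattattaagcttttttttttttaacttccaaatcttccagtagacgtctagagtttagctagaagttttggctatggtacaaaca
Fmod: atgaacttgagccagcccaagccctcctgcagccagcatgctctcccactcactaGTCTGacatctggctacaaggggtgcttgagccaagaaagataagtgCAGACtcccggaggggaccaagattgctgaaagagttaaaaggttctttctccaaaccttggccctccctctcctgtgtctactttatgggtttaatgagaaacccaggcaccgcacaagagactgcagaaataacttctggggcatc

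The stretches are chrX:73483351-73483600 for *Bgn*, chr13:49544193-49544442 for *Aspn* and chr1:134037004-134037253 for *Fmod*. The *Bgn* stretch is 64.4% G and C and held 3 GC boxes, of which 2 overlap, starting 34, 10 and 6 bases before the transcript start. The *Aspn* stretch is 30.0% G and C and held 2 TATA boxes, 207 and 178 bases before the start. The *Fmod* stretch is 51.2% G and C and held 2 SMAD elements, 195 and 148 bases before the start. Of the 32536 promoters of this length in the RefSeq table, whose median was 52.4% G and C, 33.0% held the GC box, 12.3% the TATA box and 42.2% the SMAD element. An E-box (CANNTG) occurred once in each of the 3 stretches and in 66.2% of all promoters, and an AP-1 site (TGANTCA) in none of the 3 and in 6.73% of all. RefSeq promoter entries were found for 7 of the 9 members, and *Dcn* and *Lum* had none. These matches describe letters, and binding was not measured.

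The sections held 1772259 UMIs (unique molecular identifiers, each standing for 1 captured RNA molecule) under marked tissue for Day 3, 4442962 for Day 7 and 4611723 for Day 14, in 664, 549 and 697 spots, and values below follow this order of days. The median spot held 1513, 6687 and 4827 UMIs, so the Day 3 values are the least precise. A level is given as CPM, the UMIs of a gene per 1000000 UMIs of the section. Because the assay captures molecules at their 3′ end, levels were not divided by transcript length. The 9 members together gave 5801, 21992 and 11373 UMIs. The marked spots are a selected area of each slide. Another 674, 2118 and 1780 unmarked spots also held at least 500 UMIs, and they are taken up where the members are counted and in the last paragraph.

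From Day 3 to Day 7 the members moved apart. *Bgn*, *Aspn* and *Fmod* were higher on Day 7 and *Prelp* and *Podn* lower, while *Dcn*, *Lum*, *Omd* and *Ogn* stayed within 1.5-fold. From Day 7 to Day 14 *Bgn*, *Aspn*, *Lum*, *Ogn* and *Podn* fell and *Fmod* alone rose past that size. Under marked tissue the most abundant SLRP was *Dcn* on Day 3, *Bgn* on Day 7 and *Lum* on Day 14. Over all spots of the Day 14 slide *Dcn* (6064 UMIs) and *Lum* (6058 UMIs) were level.

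In class I, *Dcn*, whose protein binds collagen fibrils and TGF-β, went from 1125 CPM (1076 to 1175) through 802 CPM (776 to 829) to 567 CPM (546 to 589). Its level was lower at each later day, and Day 14 lay 0.99 below Day 3 on the log2 scale (a log2 ratio of -0.99, interval -1.07 to -0.90). Over all spots of the slides its step from Day 7 to Day 14 was smaller, from 686 to 650 CPM. *Bgn*, the closest relative of *Dcn*, which can also act as a danger signal on innate immune receptors when soluble, was at 686 CPM (648 to 725), 2145 CPM (2103 to 2189) and 658 CPM (635 to 682). *Bgn* thus peaked on Day 7, with a log2 ratio of 1.65 over Day 3 and of -1.70 from Day 7 to Day 14, and its intervals for Day 3 and Day 14 overlapped. *Aspn*, a collagen-binding member that inhibits TGF-β, had the same shape at a lower level, with 158 CPM (140 to 178), 454 CPM (435 to 475) and 158 CPM (147 to 170). Its log2 ratios were 1.52 and -1.52, so that Day 14 differed from Day 3 by 0.00 (-0.20 to 0.21).

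In class II, *Lum*, which regulates fibril spacing in cornea and skin, was at 928 CPM (884 to 974), 1274 CPM (1241 to 1308) and 788 CPM (763 to 814). Its range over the days was narrow beside that of *Bgn*, and only its fall from Day 7 to Day 14, of 0.69 on the log2 scale, passed 1.5-fold. *Fmod*, which binds collagen and takes part in its cross-linking, was at 11.8 CPM (7.34 to 18.1), 36.2 CPM (30.9 to 42.3) and 83.5 CPM (75.4 to 92.3), from 21, 161 and 385 UMIs. It was the one member that rose in both steps and ended 7.05-fold above Day 3, with a log2 ratio of 2.82 (2.18 to 3.52). Its early rise depended on the area counted: the unmarked spots of the Day 3 slide held 87 *Fmod* UMIs, and counting all spots of the slides gave a log2 ratio from Day 3 to Day 7 of -0.05 in place of 1.61. From Day 7 to Day 14 *Fmod* went from 30.0 to 133 CPM over all spots, a log2 ratio of 2.15. This rise was larger than that in marked spots, from 36.2 to 83.5 CPM or 2.30-fold.

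*Prelp*, whose protein links basement membranes to the underlying connective tissue, was at 189 CPM (169 to 210), 77.4 CPM (69.5 to 86.1) and 112 CPM (103 to 122). It fell to Day 7 by 1.29 on the log2 scale, had a log2 ratio of 0.53 from Day 7 to Day 14, and was at its lowest on the day on which *Bgn* and *Aspn* were highest. *Omd*, known mainly from bone, was near the limit of detection with 13, 43 and 44 UMIs. These were 7.34 CPM (3.91 to 12.5), 9.68 CPM (7.00 to 13.0) and 9.54 CPM (6.93 to 12.8), and no difference in CPM between its days was detectable at this depth.

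In class III, *Ogn*, a keratan sulfate member also called mimecan, was at 102 CPM (87.8 to 118), 117 CPM (107 to 128) and 67.9 CPM (60.6 to 75.8). Day 3 and Day 7 overlapped and Day 14 lay below both. In class V, *Podn*, first described in kidney podocytes, was at 66.6 CPM (55.1 to 79.7), 33.1 CPM (28.0 to 38.9) and 21.5 CPM (17.4 to 26.1). It fell in both steps and ended 3.10-fold below Day 3, the largest fall of the 9 members over that interval.

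**Figure D1:**
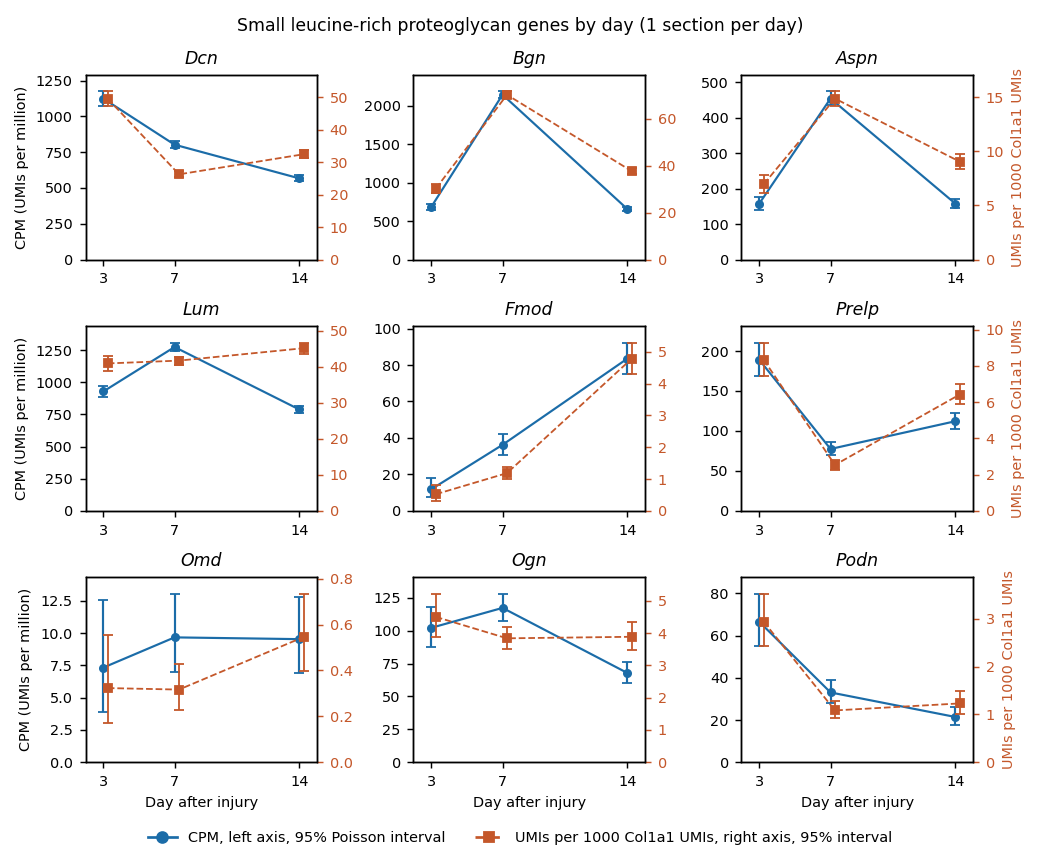
Levels of the 9 members on Day 3, Day 7 and Day 14, 1 section per day, as CPM on the left axis (circles, solid lines) and as UMIs per 1000 *Col1a1* UMIs on the right axis (squares, dashed lines), with bars for 95% counting intervals. *Bgn* and *Aspn* peak on Day 7 on both scales, *Fmod* climbs to 83.5 CPM on Day 14, and *Prelp* and *Podn* are highest on Day 3.

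In counts, 3 of the 9 members were at least 1.5-fold higher on Day 7 than on Day 3, against 19.5% of the 10541 genes with at least 50 UMIs over both sections, and 2 were at least 1.5-fold lower, against 15.5%. From Day 7 to Day 14, 1 member was higher, against 23.4% of 11746 genes, and 5 were lower, against 15.3%. From Day 3 to Day 14, 1 member was higher, against 28.4% of 10955 genes, and 4 were lower (*Dcn*, *Prelp*, *Ogn* and *Podn*), against 14.3%. The median log2 ratio of the members was 0.40, -0.62 and -0.24 in these 3 comparisons, and that of all genes counted was 0.04, 0.13 and 0.18. Several of the falls depended on the area counted. Over all spots of the slides, the log2 ratios from Day 7 to Day 14 were -0.37 for *Lum*, -0.32 for *Ogn* and -0.52 for *Podn*, and those from Day 3 to Day 14 were -0.53 for *Dcn* and -0.45 for *Ogn*, all within 1.5-fold. The 9 members are few, so 1 gene more or less moves such a share a good deal. Weighting every spot equally (the mean of spot CPM) moved the median of all genes to 0.27 from Day 3 to Day 7 and to 0.36 from Day 3 to Day 14; *Lum* then had log2 ratios of 0.77 and 0.30 in these 2 comparisons and *Bgn* 0.28 from Day 3 to Day 14.

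The make-up of the SLRP pool followed from these levels. *Dcn* gave 34.4%, 16.2% and 23.0% of the member UMIs. *Bgn* gave 20.9%, 43.3% and 26.7%, and *Lum* 28.4%, 25.7% and 32.0%. These 3 genes dominated the pool on each day. *Fmod* grew from 0.362% to 0.732% and 3.39%, and on Day 14 it ranked above *Ogn* and *Podn*.

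How much matrix-producing tissue each section held was not measured, and in a spot fewer cells of a type and less RNA per cell cannot be told apart. The members were therefore also divided by *Col1a1*, the main fibrillar collagen gene of skin, which itself stood at 22693, 30561 and 17471 CPM. Per 1000 *Col1a1* UMIs, *Lum* was nearly level at 40.9, 41.7 and 45.1. *Col3a1* was at 264, 452 and 260 on this scale, so *Lum* was not level relative to *Col3a1*. *Dcn* went from 49.6 to 26.3 and 32.5, and *Bgn* from 30.2 to 70.2 and 37.7. *Aspn* went from 6.96 to 14.9 and 9.05, so *Bgn* and *Aspn* peaked on Day 7 on this scale too. This depended on the collagen chosen. Relative to *Col3a1*, *Aspn* was not highest on Day 7, and the fall of *Bgn* from Day 7 to Day 14 was much smaller.

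*Fmod* went from 0.522 to 1.19 and 4.78 per 1000 *Col1a1* UMIs, *Prelp* from 8.33 to 2.53 and 6.42, and *Podn* from 2.93 to 1.08 and 1.23. *Ogn* stayed between 3.84 and 4.50, and *Omd* was at 0.323, 0.317 and 0.546. From Day 7 to Day 14 the direction of *Dcn*, *Lum*, *Ogn*, *Podn* and *Omd* differed between the scales. *Omd* went from 9.68 to 9.54 CPM but from 0.317 to 0.546 per 1000 *Col1a1* UMIs, from 43 and 44 UMIs. *Dcn*, at -0.50 in CPM, had a log2 ratio of 0.31 (0.23 to 0.38) per *Col1a1*, and *Lum*, at -0.69 in CPM, had 0.11 (0.05 to 0.18). For *Ogn* (0.02) and *Podn* (0.18) the interval per *Col1a1* included 0. *Podn* and *Prelp* were lower on Day 7 than on Day 3 on both scales.

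The collagens that SLRPs bind had a Day 7 peak as a group. Of the 10 fibrillar and associated collagen genes, 8 were at least 1.5-fold higher on Day 7 than on Day 3 and none lower, and all 10 were lower on Day 14 than on Day 7. *Col3a1*, the collagen of early repair, went from 6000 to 13815 and 4544 CPM, and *Col12a1*, a fibril-associated collagen, from 87.5 to 963 and 169 CPM.

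Of the enzymes that build and sulfate the glycosaminoglycan chains, 6 of 19 were higher and 3 lower on Day 7 than on Day 3, and 12 of 19 were lower and none higher on Day 14 than on Day 7. *Chsy1*, which polymerises chondroitin, was at 24.3, 64.6 and 25.8 CPM, and its cofactor *Chpf* at 99.3, 158 and 59.6 CPM. *Xylt2*, which starts the chains, went the other way, with 63.2, 32.6 and 31.2 CPM.

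Among the proteases that process SLRPs and collagens, 2 of 10 were higher and 2 lower on Day 7 than on Day 3, and 1 was higher and 7 lower on Day 14 than on Day 7. *Bmp1*, which removes the propeptides of biglycan, osteoglycin and fibrillar procollagens, was at 300, 592 and 204 CPM. *Mmp13* had 20.9 CPM at first and 98.0 CPM at the last time point, and *Mmp3* was at 377, 266 and 77.2 CPM. *Bmp1* thus peaked on Day 7, and *Mmp13* and *Mmp3* ended in opposite directions.

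Other genes of the wider SLRP family were scarce. Of 9, *Ecm2*, the neighbour of *Aspn*, was at 38.4, 42.3 and 39.9 CPM and *Tsku* at 22.0, 32.2 and 18.4 CPM. *Chad*, typical of cartilage, gave 5, 0 and 60 UMIs, *Podnl1* 1, 57 and 24, and *Kera*, typical of cornea, 3, 14 and 36. *Epyc* had no UMI on any day, which allows up to 2.08, 0.83 and 0.80 CPM. Of 5 tendon genes, which are given because tendon expresses *Fmod* strongly, *Comp* gave 3, 1 and 69 UMIs (1.69 CPM on Day 3 and an interval of 11.6 to 18.9 CPM on Day 14), *Thbs4* was at 5.64, 55.4 and 41.0 CPM, and *Tnmd* at 17.5, 24.5 and 40.1 CPM. *Scx* was at 4.51, 6.98 and 6.94 CPM and *Mkx* at 10.7, 8.78 and 8.67 CPM, so 3 of the 5 were higher on Day 14 than on Day 3 beyond their counting intervals. Their part in the *Fmod* result was not tested.

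Markers of other cell types also differed between the sections. Of 10 macrophage markers, 5, 9 and 10 were at least 1.5-fold lower from Day 3 to Day 7, from Day 7 to Day 14 and from Day 3 to Day 14. Of 9 neutrophil markers counted, 8 were lower on Day 7 than on Day 3. From Day 7 to Day 14, 9 of 10 fat markers were lower and 10 of 10 epidermal markers higher. Of 10 sebaceous gland and hair genes, 7 were higher in that step and none lower, and *Krt71* gave 0, 1 and 6874 UMIs over the 3 days. The part of these shifts in the members' CPM was not tested.

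Where the members lay within each section was read with 2 lists of 12 genes each, none of them a member. The wound-bed list holds genes of activated and scar-forming fibroblasts such as *Postn*, *Tnc* and *Cthrc1*, and the resting-dermis list genes known from fibroblasts of uninjured dermis and fascia such as *Pi16*, *Clec3b* and *Mfap4*. Resting dermis is a working name for that list, since fibroblasts inside wounds can express these genes too and no unwounded section was there to compare. Among spots with at least 500 UMIs (520, 539 and 689), those in the top 25% of one list and not of the other are called wound-bed spots (91, 83 and 81) and resting-dermis spots (91, 83 and 81). Another 39, 52 and 91 spots were in both. The classes are ranges of a score, and between 37 and 84 spots per section lay within 10% of each threshold.

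The lists separated the classes best on Day 3, when wound-bed spots held 5064 CPM of the wound-bed list against 1294 CPM in resting-dermis spots. The same values were 13626 against 6319 CPM on Day 7 and 2917 against 1382 CPM on Day 14. On Day 14 the 91 spots at the top of both lists, which are in neither class, held 4449 CPM of the wound-bed list. This was more than in wound-bed spots, and they also held 3825 CPM of the resting-dermis list. Wound-bed spots were deeper than resting-dermis spots, with a median of 2160 against 1356 UMIs, 12253 against 5307, and 5395 against 3045. On Day 7 and Day 14 the resting-dermis spots were scattered through the section (the maps of spot class), so the contrast is weaker there. On Day 7 the resting-dermis spots held more of the wound-bed list (6319 CPM) than of their own (2987 CPM), so they cannot be taken for tissue outside the wound.

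On Day 3, *Bgn* was the only counted member higher in the wound bed, at 975 against 561 CPM (log2 0.80, 0.47 to 1.13). *Lum* stood at 304 CPM in wound-bed spots and 1340 CPM in resting-dermis spots (log2 -2.14, -2.47 to -1.81). *Dcn* stood at 712 against 1466 CPM (log2 -1.04), and *Aspn* at 80.0 against 292 CPM (log2 -1.87, -2.56 to -1.20). *Prelp* was at 160 against 332 CPM (log2 -1.05) and *Ogn* at 69.7 against 263 CPM (log2 -1.92). The Day 3 wound-bed spots thus held less lumican and asporin RNA than the resting-dermis spots, and more biglycan RNA. *Podn* had 10 UMIs in the wound bed and 31 in resting-dermis spots, *Omd* 1 and 1, and *Fmod* 0 and 2, where 0 allows up to 9.52 CPM, and these 3 genes were too sparse to be counted.

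*Col1a1* itself was lower in the Day 3 wound bed, at 16193 against 35316 CPM. Relative to *Col1a1*, the Day 3 log2 ratio of wound bed over resting dermis was 1.92 for *Bgn*, -1.01 for *Lum*, -0.74 for *Aspn* and -0.79 for *Ogn*. For *Dcn* and *Prelp* it was 0.08 and 0.07, so their deficit was no larger than that of *Col1a1*.

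On Day 7 the pattern was different. *Aspn* was at 606 CPM in the wound bed and 312 CPM in resting-dermis spots (log2 0.96, 0.71 to 1.21), and *Bgn* at 2890 against 1899 CPM (log2 0.61, 0.50 to 0.71). *Lum* stood at 1460 against 1325 CPM (log2 0.14, 0.01 to 0.27), and *Dcn* at 834 against 820 CPM. *Col1a1* was at 36303 CPM in the wound bed and 29793 CPM in resting-dermis spots, so relative to *Col1a1* the wound bed held slightly less *Lum*. The Day 3 deficit of *Lum* and *Aspn* in the wound bed was thus not seen in CPM in this section, and whether the days differ was not tested.

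*Prelp* remained the exception on Day 7, with 49.1 CPM in the wound bed and 108 CPM in resting-dermis spots (log2 -1.14, -1.70 to -0.58), and it was lower there relative to *Col1a1* as well (-1.43). *Fmod* was at 35.5 against 40.4 CPM and *Ogn* at 133 against 116 CPM, within 1.5-fold. *Omd* gave 21 UMIs in the wound bed and 1 in resting-dermis spots, and *Podn* 30 and 12, both under the 50 UMIs needed to be counted.

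On Day 14 *Bgn* was at 909 against 606 CPM (log2 0.59, 0.33 to 0.85) and *Lum* at 1131 against 742 CPM (log2 0.61, 0.38 to 0.84), both higher in the wound bed. The *Lum* value was 0.37 per *Col1a1*, 0.53 with *Postn* left out of the wound-bed list and 0.30 with a wider share of top spots, each within 1.5-fold. *Aspn* stood at 232 against 171 CPM, with an interval that included no difference (-0.05 to 0.95). *Ogn* was lower in wound-bed than in resting-dermis spots, at 63.8 against 113 CPM (log2 -0.82, -1.58 to -0.07). Its sign depended on the resting-dermis genes used, with 0.32 and 0.08 when either subset of 6 genes was taken alone. The spots at the top of both lists gave 26.2% of the section's *Ogn* UMIs from 10.3% of all its UMIs. Wound-bed spots gave 9.90% from 10.5%, so low *Ogn* did not extend to all spots rich in the wound-bed list. Spots at the top of both lists also gave 26.1% of the *Bgn* and 30.3% of the *Aspn* UMIs. *Dcn*, *Prelp* and *Fmod* were within 1.5-fold, at 582 against 694, 142 against 151 and 101 against 92.4 CPM.

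**Figure D2:**
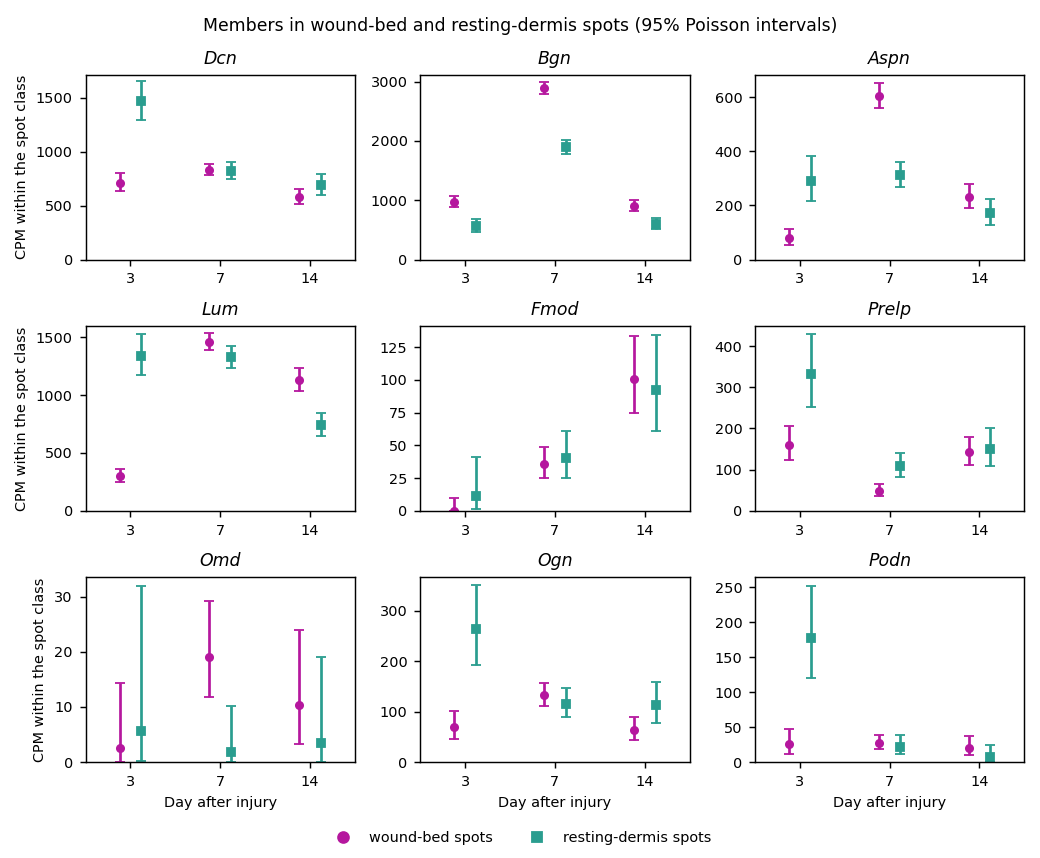
CPM of each member in wound-bed spots (circles) and resting-dermis spots (squares) on each day, with 95% Poisson intervals, 1 section per day. On Day 3 the wound-bed values of *Lum* (304 CPM) and *Aspn* (80.0 CPM) lie far below the resting-dermis values, and on Day 7 they lie above them.

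In counts, 1 of the 6 members with at least 50 UMIs was at least 1.5-fold higher in wound-bed spots on Day 3, against 36.8% of 1929 genes, and 5 were higher in resting-dermis spots, against 15.1%. On Day 7, 2 of 7 were higher in wound-bed spots, against 12.1% of 5338 genes, and 1 in resting-dermis spots, against 12.3%. On Day 14, 2 of 7 were higher in wound-bed spots, against 14.1% of 2877 genes, and 1 in resting-dermis spots, against 6.85%. The members' median log2 ratio was -1.46, 0.14 and 0.13, beside 0.33, 0.02 and 0.15 over all genes counted. *Bgn* was past 1.5-fold in the wound bed on each day by a narrow margin. With *Postn* left out of the wound-bed list its log2 ratio was 0.51, 0.42 and 0.38, under that size on all 3 days, and on Day 3 it was 0.55 among spots of at least 1000 UMIs.

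Markers of other cell types moved with these classes. On Day 3 wound-bed spots held 16371 CPM of 10 muscle genes against 44562 CPM in resting-dermis spots, and all 10 were at least 1.5-fold higher in resting-dermis spots. The 7 fat genes counted were likewise all higher there (2809 against 8880 CPM for the list), 6 of 8 neutrophil genes were higher in the wound bed (4411 against 2399 CPM), and so were 4 of 4 endothelial genes. Muscle genes were also higher in resting-dermis spots on Day 7 (10 of 10) and Day 14 (7 of 10). On Day 7, 9 of 10 fat, 8 of 10 epidermal and 5 of 6 sebaceous and hair genes were higher there too, and 6 of 9 endothelial genes were higher in wound-bed spots. On Day 14, 2 of 6 fat genes were higher in resting-dermis spots and 3 of 10 epidermal genes in wound-bed spots. Their part in the members' values was not tested.

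**Figure D3:**
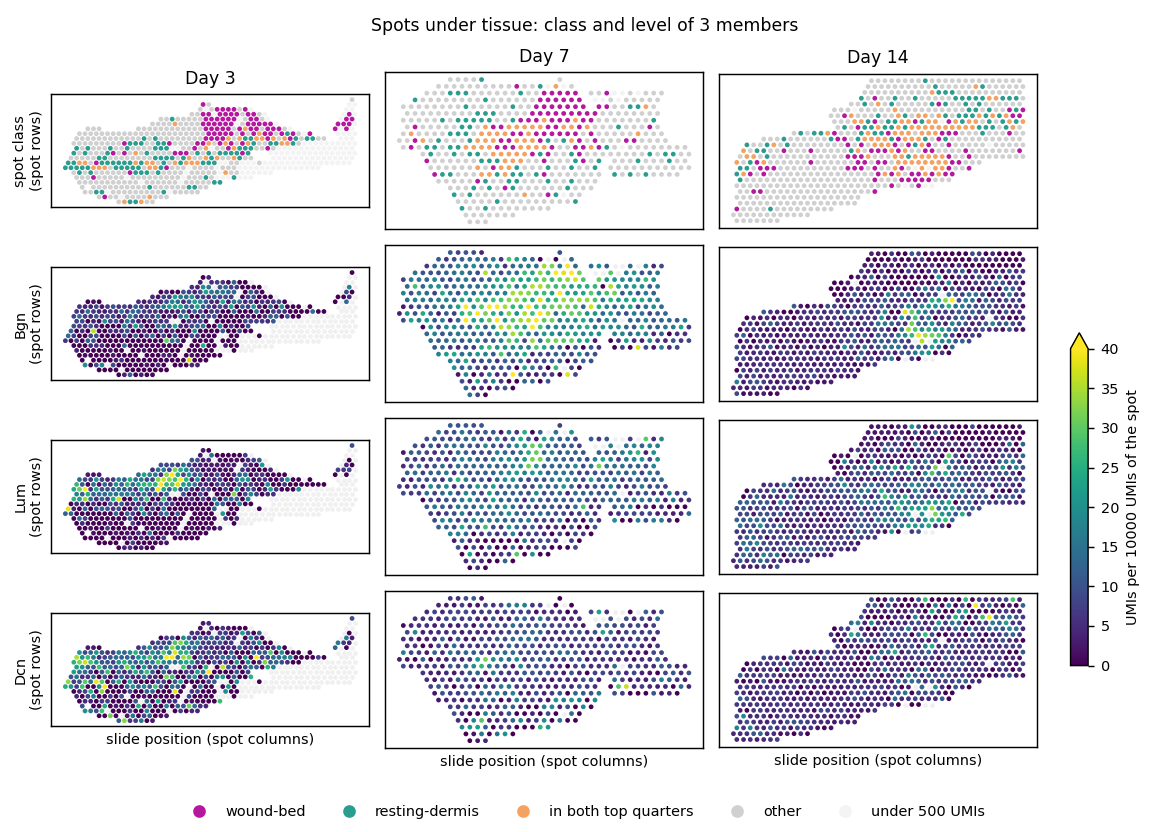
Maps of the spots under marked tissue in the 3 sections, by slide column and row, coloured by spot class (top row) and by UMIs of *Bgn*, *Lum* and *Dcn* per 10000 UMIs of the spot (lower rows, scale ending at 40, spots under 500 UMIs pale). On Day 3 *Lum* is low where the wound-bed spots lie and high in a patch beside them, and on Day 7 *Bgn* is high through the wound-bed spots.

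Within the wound-bed spots alone, *Lum* and *Aspn* differed more between Day 3 and Day 7 than in the whole sections. *Lum* went from 304 to 1460 and 1131 CPM, a log2 ratio of 2.26 (1.99 to 2.54) from Day 3 to Day 7 where the whole sections gave 0.46. *Aspn* went from 80.0 to 606 and 232 CPM, a log2 ratio of 2.92 (2.40 to 3.49). *Bgn* went from 975 to 2890 and 909 CPM, and *Dcn* stayed at 712, 834 and 582 CPM. *Fmod* gave 0, 39 and 49 UMIs, and *Prelp* went from 160 to 49.1 and 142 CPM.

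Within the resting-dermis spots, *Lum* was at 1340, 1325 and 742 CPM and *Aspn* at 292, 312 and 171 CPM, without the Day 7 increase seen in the wound bed. *Bgn* went from 561 to 1899 and 606 CPM, so its Day 7 peak was present in both classes. *Dcn* went from 1466 to 820 and 694 CPM, *Prelp* from 332 to 108 and 151 CPM, and *Ogn* from 263 to 116 and 113 CPM. *Podn* fell from 31 to 12 and 2 UMIs, or 177, 22.0 and 6.84 CPM. The decline of *Dcn* and *Podn* over the days was thus larger in these spots than in wound-bed spots, where *Podn* was at 25.8, 27.3 and 20.6 CPM. Whether the classes hold the same tissue on each day was not tested.

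Levels were also read by distance from the wound bed, whose core was taken as the wound-bed spots with at least 2 wound-bed neighbours (65, 57 and 34 spots), and other spots were binned by the distance to it in spot pitches. Each bin pools spots in all directions, so it cannot show whether a high level forms a ring. On Day 3, *Lum* was at 266 CPM in the core, 684 CPM at 1 to 2 pitches, 1831 CPM at 3 to 5 pitches and 1007 CPM beyond, so it was highest at 3 to 5 pitches. *Dcn* was highest in the same bin, with 663, 998, 1743 and 1176 CPM, and so was *Aspn*, with 72.4, 87.2, 299.6 and 172 CPM. *Podn* and *Prelp* were also highest at 3 to 5 pitches, at 104 and 249.6 CPM, but for both genes that interval overlapped the one beyond. *Col1a1* had 15549, 14833, 25068 and 26935 CPM. *Bgn* was highest in the core, with 1020 CPM in the core, 793 CPM at 1 to 2 pitches, 895 CPM at 3 to 5 pitches and 491 CPM beyond.

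On Day 7 *Lum*, *Dcn* and *Aspn* were not highest at 3 to 5 pitches. *Lum* was at 1494, 1394, 1278 and 1030 CPM from the core outwards, *Bgn* at 2993, 2729, 1883 and 1320 CPM, and *Aspn* at 610, 589, 317 and 344 CPM. *Dcn* was at 866, 911, 863 and 631 CPM. *Prelp* was lowest in the core and, as on Day 3, highest at 3 to 5 pitches, with 52.8 (38.9 to 70.0), 72.2, 92.4 (74.6 to 113) and 87.0 CPM. Its interval at 3 to 5 pitches overlapped the one beyond. *Fmod* was at 27.5, 35.6, 40.7 and 38.5 CPM with overlapping intervals. *Omd*, at 23.1, 11.6, 2.98 and 4.28 CPM, was also highest in the core, from 43 UMIs in all.

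On Day 14 *Bgn* (1140, 1056, 542 and 415 CPM), *Lum* (1154, 1127, 687 and 591 CPM) and *Aspn* (275, 273, 121 and 95.7 CPM) were higher in the core and at 1 to 2 pitches than farther out. *Fmod* was at 126, 93.0, 81.1 and 72.6 CPM and *Dcn* at 549, 660, 534 and 537 CPM. From Day 3 to Day 14, *Lum* and *Aspn* therefore changed from low to high in the core, while *Bgn* had its highest value there on each day. On Day 14 the core intervals of all 3 genes overlapped those at 1 to 2 pitches. On Day 3 the same held for *Aspn*, and the *Bgn* core interval overlapped that at 3 to 5 pitches.

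**Figure D4:**
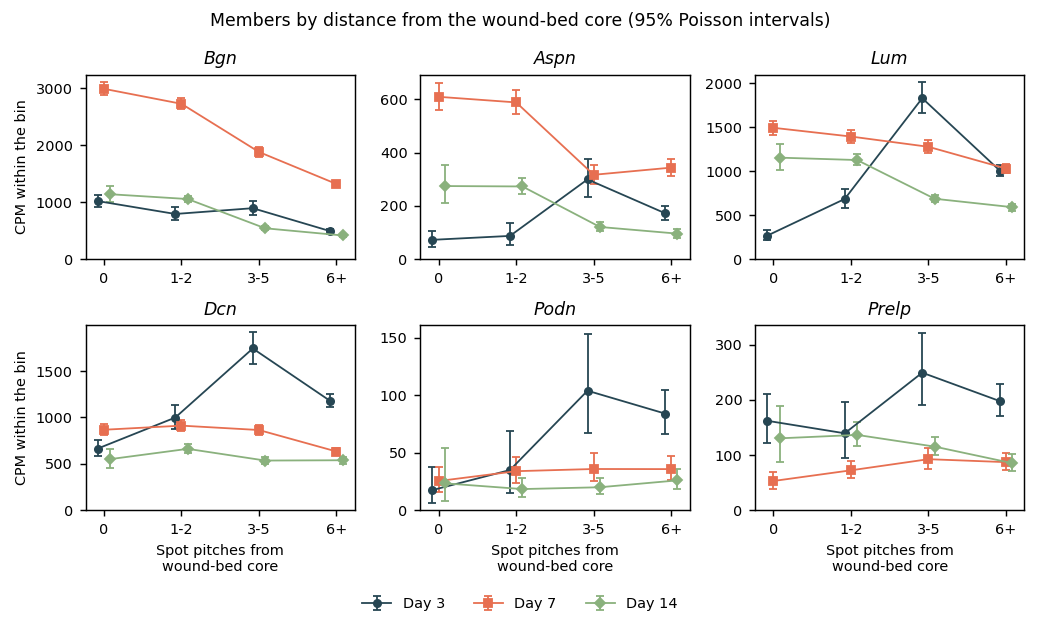
CPM of 6 members by distance from the wound-bed core in spot pitches (0, 1-2, 3-5 and 6 or more), with 95% Poisson intervals and 1 line per day. The Day 3 lines of *Lum*, *Dcn*, *Aspn* and *Podn* rise to a maximum at 3 to 5 pitches, and the Day 7 and Day 14 lines of *Lum* and *Bgn* fall with distance.

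How many spots held a member depended on depth. Without thinning, *Dcn* had a UMI in 55.9%, 89.6% and 85.8% of marked spots, *Bgn* in 41.9%, 94.4% and 81.3%, *Lum* in 45.3%, 91.1% and 85.9%, and *Fmod* in 2.86%, 20.9% and 36.0%. After thinning each spot to 1000 UMIs, which left out 238, 24 and 18 shallower spots, *Dcn* was found in 53.3%, 47.2% and 42.0% of spots, *Bgn* in 34.7%, 78.7% and 40.4%, and *Lum* in 44.1%, 64.4% and 49.9%. At equal depth the share of spots with *Bgn* and *Lum* was thus highest on Day 7, and that of *Dcn* was lower on Day 14 (38.2% to 45.8%) than on Day 3 (48.4% to 58.1%).

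The tenth of spots richest in muscle genes served as background, with a median depth of 1601, 2370 and 2871 UMIs against 2373, 7128 and 4948 over all spots used. *Bgn* was found in 6.98%, 54.7% and 11.8% of these spots and *Lum* in 16.3%, 34.0% and 14.7%, below their shares in all spots on each day. *Dcn* was found in 30.2%, 52.8% and 44.1%, so on Day 7 and Day 14 its share did not exceed that of muscle-rich spots. *Aspn* was found in 10.3% of all spots and 0 of 43 muscle-rich spots on Day 3, which allows a share of up to 8.22% (exact binomial bound).

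Across spots, the members followed the fibrillar collagens to different degrees. Pearson's r between *Lum* and *Col1a1*, on log1p of UMIs per 10000 over 520, 539 and 689 spots, was 0.54, 0.61 and 0.63, and after thinning 0.45, 0.25 and 0.39. For *Bgn* and *Col1a1* it was 0.40, 0.56 and 0.57 (thinned 0.28, 0.33 and 0.30). For *Dcn* and *Col1a1* it was 0.39 on Day 3 and 0.17 on Day 7 and Day 14 (thinned 0.37, 0.01 and 0.01). Spots of a section share a library and differ in depth, so these values describe the sections only.

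Among themselves the members were loosely related, with a median r over the 36 pairs of 0.16, 0.08 and 0.07 (thinned 0.07, 0.01 and 0.00). Of 2971 genes with at least 100 UMIs in each section, those most like *Lum* by mean r over the 3 sections were *Col1a1* (0.59), *Col1a2* (0.59) and *Col3a1* (0.54), and those most like *Bgn* were *Col1a2* (0.52), *Col1a1* (0.51) and *Col3a1* (0.49). *Aspn* was most like *Col1a2* (0.43), *Col1a1* and *Sparc*, and *Prelp* most like *Col1a2* (0.26), *Col1a1* (0.24) and *Col3a1* (0.22). *Dcn* was closest to *Col3a1* (0.32), *Col1a2* (0.28) and *Sparc* (0.28), and *Ogn* to *Sparc* (0.24), *Col3a1* (0.23) and *Col1a2* (0.22). The sparse members had no close partner: the highest values were 0.13 for *Fmod* (*Mif4gd* and *Timp3*), 0.15 for *Podn* (*Aebp1*, then *Psapl1* and *Fa2h*) and 0.10 for *Omd* (*Snrpf*, *Rras* and *Cd47*).

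Members differed in how concentrated they were. On Day 3 the tenth of spots with the most UMIs of a member held 55.9% of the *Dcn* UMIs, 63.1% of *Bgn*, 67.1% of *Lum* and 74.6% of *Aspn*. On Day 7 the same shares were 36.6%, 38.2%, 34.6% and 40.7%, and on Day 14 31.0%, 39.2%, 32.2% and 48.4%. *Aspn* was the most concentrated of these 4 genes on each day. The sections differ in UMIs, and the part of depth in these shares was not tested. The highest single spot held 113 *Bgn* UMIs, on Day 7.

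**Figure D5:**
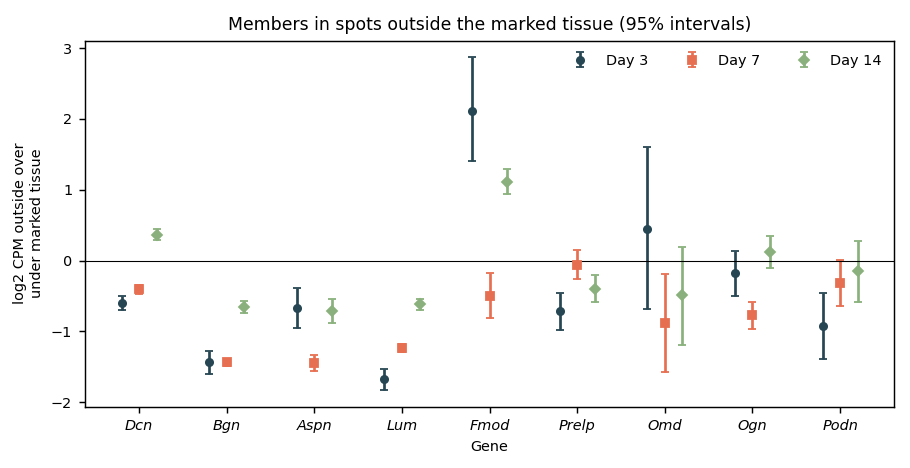
Log2 ratio of CPM in spots outside the marked tissue over CPM in spots under it, per member and day, with 95% intervals. *Fmod* lies above 0 on Day 3 (2.11) and Day 14 (1.12) and *Dcn* on Day 14 (0.37), while *Bgn* and *Lum* lie below 0 on each day.

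The unmarked spots of the slides carried the members in another mixture. There *Bgn* was lower than under marked tissue on each day (log2 -1.44, -1.43 and -0.65), and so was *Lum* (-1.68, -1.24 and -0.62). *Fmod* was higher on Day 3 (51.1 against 11.8 CPM) and on Day 14 (181 against 83.5 CPM), and lower on Day 7 (25.7 against 36.2 CPM). *Dcn* was higher there on Day 14 only, at 731 against 567 CPM. On Day 3 and Day 14 *Fmod* had the largest ratio of the 9 members in either direction, and on Day 7 *Aspn* (-1.45), *Bgn*, *Lum*, *Omd* and *Ogn* had larger ones.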

How the data were processed

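Skin wound sections of C57BL/6J mice (Day 3, Day 7 and Day 14, 1 section each) were profiled by the authors on Visium slides. The deposited values are raw UMI counts per gene and spot, which the authors made with Space Ranger 1.3.0 and the mm10 build according to the submitters' processing notes. The matrices hold all 4992 spot positions of each slide, and the position lists mark those under tissue, which in the study were selected as a region of interest and were used here. The wound annotation and deconvolution of the study were not used, and no doublet caller was run. The members and lists were chosen with earlier results of these data known.

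Counts were summed over spots and divided by all UMIs (CPM). Sums have exact Poisson intervals, shares exact binomial (Clopper-Pearson) intervals and ratios exact conditional binomial intervals (95%). No test was made, since each day had 1 section and spots are not replicates. A gene was counted as higher or lower at a ratio of at least 1.5-fold among genes with at least 50 UMIs over both sides. All 9 members are named, with listed genes where a sentence counts them and the 3 genes most correlated with each member, of which 1 is not reported here. Spots were thinned without replacement (seed 1). Alternatives were other scalings, spot classes, thresholds, thinning depths and collagen denominators, and the comparisons of days within wound-bed spots and within resting-dermis spots were added after the data were seen. Python 3.11.15, numpy 2.4.6, scipy 1.17.1, pandas 2.3.3, scikit-learn 1.9.0, matplotlib 3.10.9, R 4.3.3, edgeR 4.0.16 (TMM factors) and DESeq2 1.42.0 (size factors) were used. The ratio intervals were tested on simulated data.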

Additional observations from a re-analysis of the deposited data

Results flagged for a closer look

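Unmarked spots of the slides held 2873 UMIs of the 9 members at Day 3, 14912 at Day 7 and 10023 at Day 14, spots that the comparisons above leave out. Summed over the members, their CPM there lay below that under marked tissue throughout, with log2 ratios of -0.96, -1.10 and -0.21.

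*Aspn* had a log2 ratio of wound-bed over resting-dermis spots of -1.87 at Day 3 and of 0.96 at Day 7, so the direction turned between the sections. *Lum* went from -2.14 to 0.14 and 0.61 over the 3 days in CPM. At Day 7 its value was close to no difference, and relative to *Col1a1* it was slightly lower in wound-bed spots. The difference between the days was not tested, since each day had 1 section.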

How the results depend on the processing

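Counts of members past 1.5-fold depended on the spots used. From Day 3 to Day 7, 2 members were lower (1 in wound-bed spots alone, 5 in resting-dermis spots alone) and 3 higher (5 by the mean of spot CPM, 6 in wound-bed spots). From Day 7 to Day 14, 5 were lower (2 over all spots of the slide, by the mean of spot CPM, or at 2-fold) and 1 higher (2 in either spot class). From Day 3 to Day 14, 4 were lower (2 over all spots, 0 in wound-bed spots, 7 in resting-dermis spots, 1 at 2-fold) and 1 higher (2 by the mean of spot CPM, 4 in wound-bed spots). TMM and DESeq2 scaling left each of these counts within 1.5 times. The counts per collagen UMI used another rule, an interval that excludes 0, whatever the fold. By that rule, per *Col3a1* in place of *Col1a1*, 5 in place of 3 members were lower from Day 3 to Day 7 and 1 in place of 2 from Day 7 to Day 14.

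In wound-bed spots, the Day 3 count of 1 became 0 with a wider share of top spots, spots of at least 1000 UMIs, *Postn* left out, the dermal subset of the resting list, or 2-fold. The Day 7 count of 2 became 1 with a wider or narrower share, a mean log score, *Postn* left out, the dermal subset, or per *Col1a1*, and 0 at 2-fold. The Day 14 count of 2 became 0 with the wider share, *Postn* left out, per *Col1a1* or 2-fold, and 1 with the dermal subset. In resting-dermis spots, the Day 3 count of 5 became 3 with the narrower share, the fascial subset, or per *Col1a1*, and the Day 14 count of 1 became 0 with the mean log score, either subset, or 2-fold.

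Directions turned for *Fmod* from Day 3 to Day 7 over all spots (-0.0508), *Podn* in wound-bed spots (0.0803), *Aspn* per *Col3a1* from Day 7 to Day 14 (0.0808), *Lum* per *Col1a2* from Day 7 to Day 14 (-0.0370), *Dcn* and *Prelp* per *Col1a1* in the Day 3 spot classes (0.0833 and 0.0709), and *Ogn* in the Day 14 spot classes (0.32 with the fascial and 0.0804 with the dermal subset). Thinning moved the median pair correlation from 0.16, 0.08 and 0.07 to 0.0741, 0.0142 and 0.00201. Members found in over 50% of spots numbered 1, 2 and 0 at 1000 UMIs, 0 on Day 3 and 1 on Day 7 at 500 UMIs, 3, 4 and 3 at 2000 UMIs, and 4 on Day 7 and Day 14 without thinning. The cause of these changes was not tested. k-means regions gave no value on Day 7 and Day 14, because 1 region was highest in both lists. No paired analysis was possible because each day had 1 section. Depth limits *Omd*, *Podn* and *Fmod* most, above all on Day 3.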
